A study of Rattus norvegicus with 7 samples.

Results

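The tubulins, kinesins and cytoplasmic dynein chains of rat testis were followed on 7 Affymetrix Rat230_2 arrays. Members were the probe sets whose single gene symbol in the platform annotation begins with Tuba, Tubb, Tubg, Kif and a digit, Kifc, Klc, Dync or Dynl. The rule uses names and no measured value. It found 101 of the 31042 probe sets that are not controls, for 65 of 14217 named genes. Of these genes 42 have 1 probe set and 23 have several, and 8 further probe sets were left out because their annotation names several genes.

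All 7 arrays came from testes of adult male Sprague-Dawley rats, an outbred stock, with 1 array per labelled biological replicate. The groups were untreated rats (taken as 0 h, n = 3) and rats killed 8 h (n = 2) or 20 h (n = 2) after cadmium chloride, a salt that damages the testis, was given once into the peritoneum at 3 mg/kg body weight. No vehicle injection is named for the untreated rats in the labels. Precision is limited by how few arrays there are. The tissue was whole testis, in which fewer cells of a type and less RNA per cell cannot be told apart.

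Microtubules are hollow polymers of alpha- and beta-tubulin that start from ring complexes holding gamma-tubulin. Kinesins are ATP-driven motors that walk along them, mostly towards the growing plus end, and cytoplasmic dynein walks towards the minus end. In the testis these parts build the spindles of dividing germ cells, the manchette that shapes the spermatid head, the core of the sperm tail, and the tracks in Sertoli cells along which spermatids are moved.

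Arrays had been scaled to a trimmed mean signal of 250.1, and the median signal ran from 52.9 to 72.0. They had been hybridized on 3 days. Day 1 held untreated replicate 1 and 20 h replicate 1, day 2 held untreated replicate 2 alone, and day 3 held both 8 h arrays, 20 h replicate 2 and untreated replicate 3. Both 8 h arrays therefore share their day with 1 untreated array only. The experiment file of untreated replicate 2 gives mouse as its sample type and a different staining step, although its array type and labels are those of a rat array. On 20 h replicate 1 the summed signal of 7 Leydig cell markers was 2567, against 6117 to 11126 on the other 6 arrays. The 9 measured endothelial markers summed to 448 and 710 at 8 h and 533 and 765 at 20 h, against 885 to 972 in untreated testis. Their part in the results on tubulins and motors was not tested.

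Promoters are shown for 3 tubulins that gave more signal on the arrays of day 3, and for Tubb5 and Kif5b, which gave less there on both Tubb5 probe sets and on the dimmer of 2 Kif5b probe sets. Each is the 250 bases before the start site from RefSeq, build GRCr8, written 5′ to 3′ along the gene. Capitals mark 4 motifs searched on both strands. These were CCAAT, known as the CCAAT box, then TATAAA, known as the TATA box, then GGGCGG, known as the GC box, and GTTGCC, which forms one arm of an X-box. Overlapping copies were each counted.
Tubb4b: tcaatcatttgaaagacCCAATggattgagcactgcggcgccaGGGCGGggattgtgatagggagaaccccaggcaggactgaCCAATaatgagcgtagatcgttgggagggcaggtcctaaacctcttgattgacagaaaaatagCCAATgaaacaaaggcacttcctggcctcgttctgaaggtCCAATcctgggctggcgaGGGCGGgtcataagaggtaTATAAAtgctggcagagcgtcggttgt
Tubg1: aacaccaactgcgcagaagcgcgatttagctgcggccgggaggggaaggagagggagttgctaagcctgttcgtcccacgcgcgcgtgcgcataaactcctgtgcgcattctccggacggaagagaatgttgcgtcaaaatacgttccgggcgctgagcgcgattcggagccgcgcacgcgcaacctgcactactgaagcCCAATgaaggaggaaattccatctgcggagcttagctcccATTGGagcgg
Tuba8: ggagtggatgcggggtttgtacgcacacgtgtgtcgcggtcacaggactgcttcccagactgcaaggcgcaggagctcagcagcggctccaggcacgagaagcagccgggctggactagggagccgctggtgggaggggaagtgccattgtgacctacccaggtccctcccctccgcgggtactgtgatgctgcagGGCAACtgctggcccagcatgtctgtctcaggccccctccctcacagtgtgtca
Tubb5: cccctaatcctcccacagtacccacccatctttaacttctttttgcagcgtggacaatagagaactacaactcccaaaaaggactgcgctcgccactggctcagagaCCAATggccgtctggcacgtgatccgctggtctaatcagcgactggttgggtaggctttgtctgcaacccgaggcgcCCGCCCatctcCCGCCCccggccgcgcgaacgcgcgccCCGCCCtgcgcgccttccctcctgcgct
Kif5b: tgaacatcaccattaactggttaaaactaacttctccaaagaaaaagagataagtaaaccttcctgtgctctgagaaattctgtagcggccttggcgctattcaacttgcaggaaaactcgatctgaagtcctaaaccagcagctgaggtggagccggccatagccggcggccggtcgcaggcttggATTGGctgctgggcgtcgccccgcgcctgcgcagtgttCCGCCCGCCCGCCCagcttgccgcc
They lie at chr3:28438456-28438705, strand minus for Tubb4b, chr10:86552893-86553142, strand plus for Tubg1, chr4:156112022-156112271, strand plus for Tuba8, chr20:2917327-2917576, strand plus for Tubb5 and chr17:56185136-56185385, strand plus for Kif5b. The Tubb4b window held 4 CCAAT boxes, with first bases at -233, -167, -104 and -64 from the start site, 1 TATA box at -27 and 2 GC boxes. Tubg1 held 2 CCAAT boxes, at -50 and -10, and Tuba8 held only the X-box arm, at -54. In Tubb5 there were 1 CCAAT box and 3 GC boxes, and in Kif5b 1 CCAAT box and 3 overlapping GC boxes. A promoter of 300 bases, 50 of them past the start site, was available for 56 of the 65 genes (60 promoters). Of these, 26 (43.3%) held CCAAT, against 37.5% of all 33469 promoters in the table. TATAAA stood in 7 (11.7%), against 14.2%, GGGCGG in 39 (65%), against 33.1%, and GTTGCC in 9 (15%), against 12.2%. A match describes these letters and is no measured binding site.

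Signals were analysed as log2(signal + 15), and each fold change below is a difference on that scale. A probe set was kept if at least 2 arrays gave it a signal over the 40th percentile of that array, which left 84 probe sets for 61 of the 65 genes. For 2 of the 84, those of Tubb6 and the dimmest of Klc1, no untreated array was over that percentile. Cadmium arrays alone kept them. The 17 probe sets not kept had signals of 0.6 to 76.3. They include all those of Kif1a, Kif1b, Kif1c and Kif6. The 3 groups were compared with limma, with p-values adjusted by Benjamini-Hochberg over all 20857 probe sets kept and a threshold of 0.05. Where a gene has several probe sets, the one with the highest mean stands for it unless another is named.

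No tubulin, kinesin or dynein probe set passed this test between cadmium and untreated testis at either time. At 8 h 0 of the 84 probe sets passed (0% of all 20857), and the lowest adjusted p among them in limma was 0.84. At 20 h 0 passed (0% of all), with a lowest adjusted p of 0.999 in limma, and between 20 h and 8 h 0 passed (0% of all). The genes' median log2 fold change was -0.03 at 8 h, beside -0.03 over all 11552 genes kept, and -0.01 at 20 h, beside -0.03. Higher means than in untreated testis were seen for 30 of the 84 probe sets at 8 h (35.7%, against 39% of all) and 36 at 20 h (42.9%, against 41.2% of all). The 20 h mean was above the 8 h mean for 47 (56%, against 52.6% of all). Within 0.25 of 0 on the log2 scale lay 43 of the 61 genes at 8 h and 53 at 20 h. The median standard error of a gene's fold change at 8 h was 0.19, which sets the size of change that these arrays can show.

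**Figure D1:**
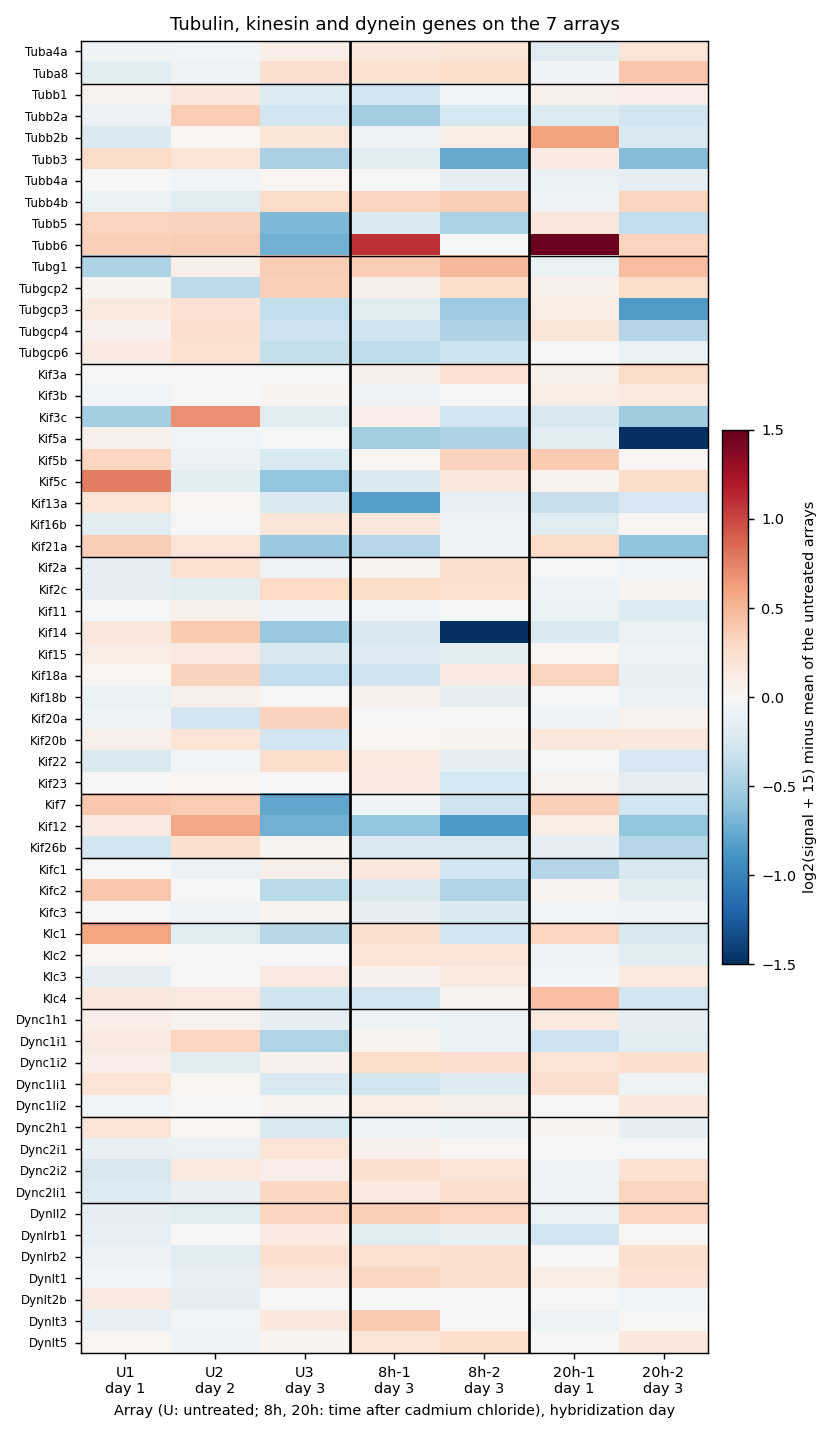
Each row is 1 of the 61 genes, grouped by role, and each column 1 array with its hybridization day. Colour gives log2(signal + 15) minus the mean of the 3 untreated arrays, and values past the ends of the scale take the end colour. Tubg1, Tubb4b and Dynll2 are red and Tubb5 and Tubb3 blue in the 4 columns of day 3, untreated replicate 3 included.

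The alpha-tubulins measured by a probe set of their own were Tuba4a and Tuba8. Tuba4a had signals of 3194, 3205 and 3545 in untreated testis, 3701 and 3759 at 8 h, and 2913 and 3799 at 20 h. Its 8 h arrays lay above all untreated arrays, while the 20 h arrays lay on both sides of them. Tuba8, an isotype known from testis, muscle and brain, had 3277, 3456 and 4321 in untreated testis, 4279 and 4412 at 8 h, and 3516 and 4905 at 20 h. Both 8 h arrays, 20 h replicate 2 and untreated replicate 3 were high and the other 3 arrays low, so the groups overlapped. Log2 fold changes at 8 h were 0.17 ± 0.15 (SE) for Tuba4a and 0.25 ± 0.18 (SE) for Tuba8, and neither passed.

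Among the 8 beta-tubulins 3 had a higher and 5 a lower mean at 8 h, and 4 and 4 at 20 h. None passed. Tubb4b, the isotype of ciliary and flagellar axonemes, had 11107, 10488 and 14585 in untreated testis, 15089 and 15387 at 8 h, and 11474 and 15047 at 20 h. It averaged 15238 ± 211 at 8 h (SD, n = 2) and 12060.0 ± 2208 in untreated testis (SD, n = 3). The 8 h arrays lay above every untreated array, but untreated replicate 3 and 20 h replicate 2, of the same day, lay close to them. The log2 fold change was 0.35 ± 0.18 (SE) at 8 h and 0.14 ± 0.18 (SE) at 20 h. With the hybridization day as a block these became 0.06 and 0.05, and under quantile normalization the 8 h value was -0.0022.

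Tubb5, the widely expressed class I isotype, ran the other way. Its brighter probe set had 822, 831 and 402 in untreated testis, 558 and 466 at 8 h, and 734 and 499.6 at 20 h. The 2 untreated arrays of days 1 and 2 and 20 h replicate 1 were high, and the 4 arrays of day 3 were low. A second Tubb5 probe set had 242, 323 and 124 in untreated testis, 119 and 161 at 8 h, and 195 and 193 at 20 h, and its day 3 arrays too were all below the others. Tubb2a had 1072, 1486 and 929.9 in untreated testis, 791 and 946 at 8 h, and 986 and 938 at 20 h. Tubb3, best known as the neuronal isotype, had 284, 267 and 160.5 in untreated testis, 204 and 131 at 8 h, and 253 and 141 at 20 h, from a probe set whose suffix marks probes shared between transcripts. On both, the day 3 arrays were below the rest, by a narrow margin for Tubb2a.

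Tubb6 gave the largest mean increase among the genes of all roles at both times, from low signals. Its probe set was kept through cadmium arrays alone, so this rank is a description and no support for a rise. Tubb6 had 33.8, 34.0 and 8.1 in untreated testis, 66.1 and 22.4 at 8 h, and 90.6 and 33.0 at 20 h. The arrays of all 3 groups overlapped, and untreated replicate 3 was the lowest. Its log2 fold change was 0.53 ± 0.52 (SE) at 8 h and 0.90 ± 0.52 (SE) at 20 h, and neither passed (limma, adjusted p = 0.86 and 0.999). Set against the untreated array of its own day, each cadmium array was higher, by 1.81 and 0.70 at 8 h and by 1.11 and 1.06 at 20 h (log2). For both 8 h arrays and 20 h replicate 2 that was untreated replicate 3 at 8.1, under the 15 added before the log. Against untreated replicates 1 and 2, 8 h replicate 2 and 20 h replicate 2 were lower. The day-block values, which draw on the same low untreated array, were 1.27 and 1.08, with unadjusted p under 0.05 in limma and no pass after adjustment. A second Tubb6 probe set was not kept and had 2.2, 13.0 and 37.2 in untreated testis, 5 and 4 at 8 h, and 3.2 and 6.7 at 20 h.

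Tubb2b had 39.1, 49.6 and 56.7 in untreated testis, 45.4 and 53.1 at 8 h, and 80.9 and 38.9 at 20 h. Its small positive value at 20 h, 0.19 ± 0.33 (SE), rested on 20 h replicate 1 and was -0.23 without that array. Tubb1, the isotype of platelets, gave 393, 422 and 325 in untreated testis, 307 and 366 at 8 h, and 401 and 405 at 20 h. Each cadmium group overlapped with untreated testis, and both 20 h arrays were above both 8 h arrays. Tubb4a was read by 3 probe sets, of which 2 carry a suffix for probes that may cross-hybridize. The one without such a suffix had 138, 133 and 140.5 in untreated testis, 136 and 123 at 8 h, and 127 and 123 at 20 h. The dimmest had 119, 137 and 67.4 in untreated testis, 28.5 and 58.8 at 8 h, and 146 and 59.6 at 20 h. On the first of these the log2 fold change at 8 h was -0.07 ± 0.19 (SE), and on the dimmest it was -1.07 ± 0.41 (SE), so the size depended on the probe set. It also depended on the hybridization day: on the dimmest all day 3 arrays were below the rest. With the day as a block the values were -0.09 and -0.44.

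Gamma-tubulin itself, Tubg1, had 1368, 2004 and 2441 in untreated testis, 2446 and 2639.7 at 8 h, and 1762 and 2602 at 20 h. It averaged 2543 ± 137 at 8 h (SD, n = 2) and 1938 ± 539.6 in untreated testis (SD, n = 3). The 8 h arrays were above all untreated arrays, by a narrow margin for the nearest pair, both hybridized on day 3. The log2 fold change at 8 h was 0.43 ± 0.24 (SE), and with the day as a block 0.13. Tubgcp2, a core subunit of the ring complex, had 674, 496 and 846 in untreated testis, 696 and 795 at 8 h, and 693 and 789 at 20 h. Tubgcp3, another core subunit, had 80.8, 85.2 and 51.8 in untreated testis, 60.8 and 44.0 at 8 h, and 78.3 and 33.0 at 20 h. Their groups overlapped. For Tubgcp4 and Tubgcp6, further ring complex proteins, all 4 day 3 arrays were below the other 3, and the log2 fold changes at 8 h were -0.38 ± 0.27 (SE) and -0.35 ± 0.24 (SE). None of the 5 genes passed, and their median at 8 h was -0.35 without the day and -0.0086 with it.

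Of the 12 cargo-carrying kinesins 9 were kept. Kif3a and Kif3b form the kinesin-2 motor that carries material into cilia and flagella. Kif3a had 1474, 1487 and 1455 in untreated testis, 1568 and 1712 at 8 h, and 1547 and 1794 at 20 h. All 4 cadmium arrays were above all 3 untreated arrays, and the log2 fold changes were 0.15 ± 0.13 (SE) at 8 h and 0.18 ± 0.13 (SE) at 20 h. On a second Kif3a probe set, with 722, 597 and 987 in untreated testis, 902 and 1050.1 at 8 h, and 771 and 929 at 20 h, the groups overlapped. Kif3b had 1703, 1768 and 1804 in untreated testis, 1664 and 1770.0 at 8 h, and 1899 and 1950.1 at 20 h, with both 20 h arrays above the untreated ones. On a second Kif3b probe set, with 1513, 1485 and 1340 in untreated testis and 1526.5 and 1366 at 20 h, these groups overlapped. The third kinesin-2 chain, Kif3c, had 47.2, 127 and 62.8 in untreated testis, 79.3 and 57.6 at 8 h, and 59.8 and 45.9 at 20 h, and untreated replicate 2 stood far above its group.

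Kif5a, Kif5b and Kif5c are heavy chains of kinesin-1, the first and last known mainly from neurons. Kif5a alone of the 61 genes had 1 probe set below every untreated array on all 4 cadmium arrays (1.19% of the 84, against 4.9% of all). This probe set, its brightest, had 98.1, 89.6 and 91.3 in untreated testis, 60.1 and 63.5 at 8 h, and 81.8 and 17.5 at 20 h. The 8 h arrays lay close together, whereas the 20 h arrays were 81.8 and 17.5. The log2 fold change was -0.49 ± 0.41 (SE) at 8 h and -0.94 ± 0.41 (SE) at 20 h, and neither passed (limma, adjusted p = 0.84 and 0.999). Without 20 h replicate 2 the 20 h value was -0.16, and without 20 h replicate 1 it was -1.73. In the fit with the day as a block the values were -0.10 at 8 h and -0.97 at 20 h. A second probe set had 56.9, 47.6 and 54.3 in untreated testis, 31.2 and 6.1 at 8 h, and 55.9 and 21.8 at 20 h, with 20 h replicate 1 inside the untreated range. The remaining Kif5a probe set was not kept.

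Kif5b, the widely expressed heavy chain, gave 2 different pictures. Its brighter probe set had 593, 442 and 400.2 in untreated testis, 482 and 602 at 8 h, and 621 and 479.7 at 20 h, and its groups overlapped. The dimmer one had 240.2, 243 and 94.1 in untreated testis, 140.0 and 81.2 at 8 h, and 254 and 102 at 20 h. There the 3 arrays of days 1 and 2 were at 240.2 to 254 and the 4 of day 3 at 81.2 to 140.0, whatever the treatment. Kif5c had 88.7, 39.0 and 25.2 in untreated testis, 37.2 and 52.7 at 8 h, and 48.2 and 59.2 at 20 h. Untreated replicate 1 was its highest array, and the groups overlapped.

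Kif13a, an endosomal cargo motor, had 57.4, 49.2 and 38.5 in untreated testis, 20.6 and 42.8 at 8 h, and 34.6 and 37.8 at 20 h. Its mean log2 fold change was -0.47 ± 0.34 (SE) at 8 h, set by 8 h replicate 1, and -0.12 without that array. A second probe set had 44.6, 65.3 and 44.8 in untreated testis, 94.2 and 7.7 at 8 h, and 6.7 and 45.8 at 20 h. There 8 h replicate 1 was the highest array and 8 h replicate 2 was low. Kif16b, a motor of early endosomes, was read by 4 kept probe sets with log2 fold changes from -0.17 to 0.04 at 8 h. For Kif21a the values were 322, 285 and 163 in untreated testis, 180.3 and 238 at 8 h, and 305 and 158 at 20 h, low on the day 3 arrays. Of the kinesins not kept, Kif1b had 5.8, 5 and 2.3 in untreated testis, 2.1 and 3.6 at 8 h, and 2 and 4.9 at 20 h. Kif1c had 20.4, 12.9 and 20.3 in untreated testis, 13.7 and 31.5 at 8 h, and 6.7 and 51.1 at 20 h. The brightest of 3 Kif1a probe sets had 30.1, 9.1 and 23.0 in untreated testis, 24.8 and 31.1 at 8 h, and 20.7 and 18.1 at 20 h. On none of these did a cadmium group stand apart from untreated testis, and on the Kif1a probe set both 20 h arrays were below both 8 h arrays. Kif6 was also not kept.

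**Figure D2:**
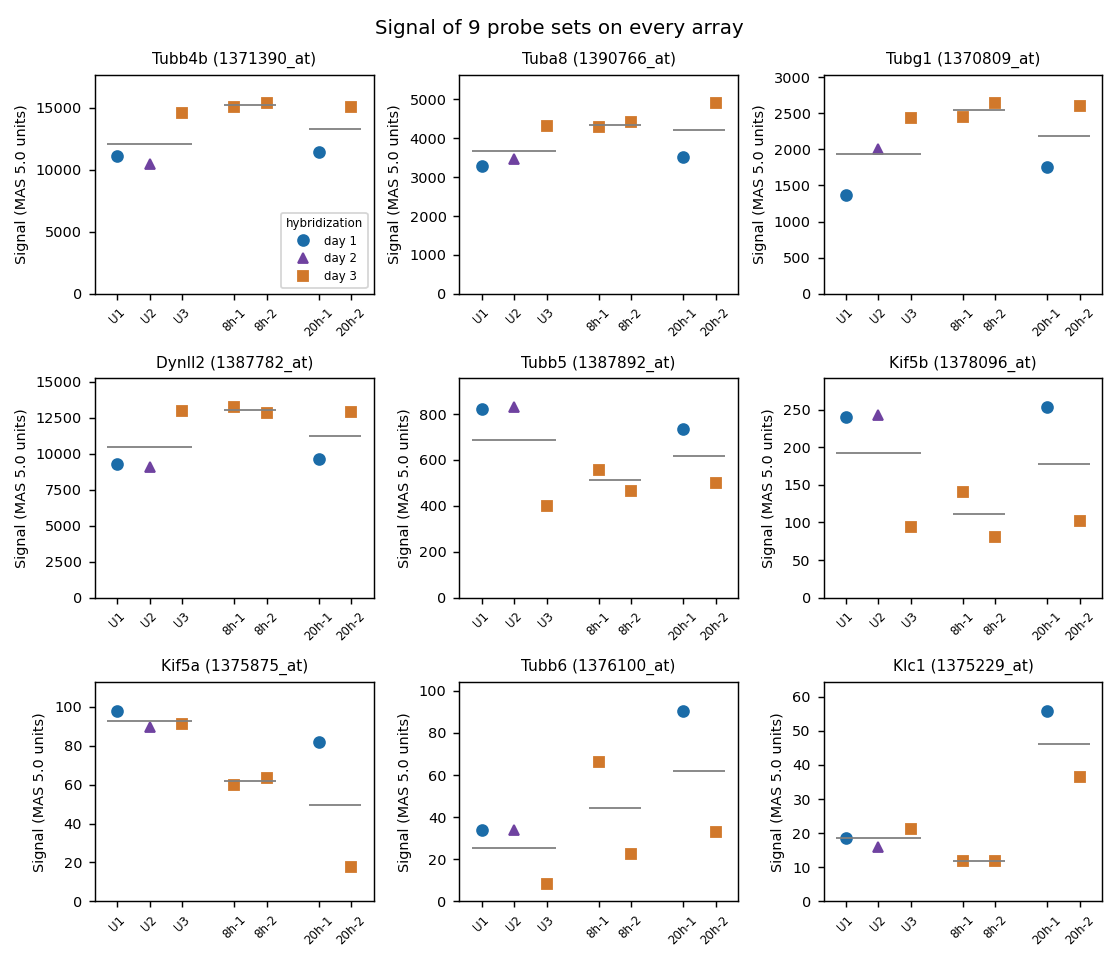
Signal in MAS 5.0 units is plotted for 9 probe sets on each array, with untreated (U), 8 h and 20 h arrays from left to right, marker shape and colour for the hybridization day, and a grey line at each group's mean. Tubb4b, Tuba8, Tubg1 and Dynll2 were high on the 4 day 3 arrays, and the brighter Tubb5 and the dimmer Kif5b probe set were low there. Kif5a (brightest probe set), Tubb6 and Klc1 (dimmest probe set) followed the day less closely.

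The kinesins of cell division and microtubule depolymerization were all kept, 11 genes, with a median log2 fold change of -0.03 at 8 h and -0.03 at 20 h. Kif2a, a depolymerizing kinesin, had 1684, 2197 and 1771 in untreated testis, 1944 and 2207 at 8 h, and 1836 and 1826 at 20 h. Kif2c, the depolymerase of centromeres, had 2097, 2063 and 2829.8 in untreated testis, 2795 and 2710.0 at 8 h, and 2229 and 2368 at 20 h. Its second probe set gave a log2 fold change of -0.02 at 8 h where the first gave 0.25. Kif11, the motor that pushes spindle poles apart, had 156, 166 and 150.1 in untreated testis, 153 and 156 at 8 h, and 145 and 134 at 20 h. Kif15, which acts beside it, had 317, 322 and 244 in untreated testis, 253 and 261 at 8 h, and 298 and 276 at 20 h. The ranges of both genes at 8 h overlapped with untreated testis, and for Kif11 both 20 h arrays were below it. On a second Kif11 probe set, with 142, 169 and 118 in untreated testis and 132 and 121.5 at 20 h, these groups overlapped. Its log2 difference between 20 h and 8 h was 0.17, against -0.13 on the first.

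Kif14, a motor of cytokinesis, had the largest mean decrease at 8 h among the genes. It had 58.2, 70.0 and 29.1 in untreated testis, 39.8 and 8 at 8 h, and 40.6 and 45.6 at 20 h. The mean was set by 8 h replicate 2 at 8; replicate 1 lay inside the untreated range. The log2 fold change was -0.87 ± 0.45 (SE) at 8 h and -0.16 ± 0.45 (SE) at 20 h, and neither passed. Without 8 h replicate 2 the first was -0.25.

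Kif18a, which shortens kinetochore microtubules, had 39.4, 52.3 and 26.0 in untreated testis, 28.2 and 42.9 at 8 h, and 52.0 and 34.1 at 20 h. Kif20a, a motor of the central spindle, had 564, 488 and 756 in untreated testis, 585 and 599 at 8 h, and 571 and 618 at 20 h. Kif22, which pushes chromosome arms, had 444, 503 and 626 in untreated testis, 575 and 473 at 8 h, and 511 and 433 at 20 h. All 3 overlapped between groups. Kif23, of the centralspindlin complex, had 358, 365 and 352 in untreated testis, 390.0 and 295 at 8 h, and 371 and 324 at 20 h on its brighter probe set. Kif18b and Kif20b, motors of mitotic microtubules and of cytokinesis, had log2 fold changes within 0.25 of 0 at both times.

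Of the other kinesins, Kif12 had the second largest mean decrease at 8 h, with 71.2, 103 and 32.9 in untreated testis, 37.6 and 28.4 at 8 h, and 69.9 and 37.4 at 20 h. The 4 day 3 arrays were at 28.4 to 37.6 and the other 3 at 69.9 to 103, and the log2 fold change of -0.72 ± 0.41 (SE) became -0.04 with the day as a block. Kif7, the hedgehog pathway kinesin of the cilium tip, had 121, 118 and 44.7 in untreated testis, 83.2 and 68.5 at 8 h, and 116 and 69.7 at 20 h, again with all day 3 arrays below the rest. Kif26b, a kinesin that lacks ATPase activity, had a log2 fold change of -0.23 ± 0.27 (SE) at 8 h and -0.28 ± 0.27 (SE) at 20 h.

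The C-terminal motor kinesins walk towards the minus end, and Kifc1 is known from the spermatid manchette and acrosome. Kifc1 had 387, 363 and 411 in untreated testis, 435 and 315 at 8 h, and 281 and 326 at 20 h. Both 20 h arrays were below all untreated arrays, and the 8 h arrays were on both sides. It averaged 304 ± 31.8 at 20 h (SD, n = 2) and 387 ± 24.2 in untreated testis (SD, n = 3), a log2 fold change of -0.34 ± 0.18 (SE) that did not pass (limma, adjusted p = 0.999). It was among the 4 largest mean decreases at 20 h. The day-block value was -0.38. Kifc2 had 110.3, 80.2 and 56.6 in untreated testis, 66.4 and 54.5 at 8 h, and 83.4 and 70.3 at 20 h. Kifc3 had 465, 446 and 477 in untreated testis, 419 and 395 at 8 h, and 451 and 440.4 at 20 h, with both 8 h arrays below the untreated ones. The mean of each of the 3 genes was lower than untreated at both times, and none passed.

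Kinesin light chains tie kinesin-1 to its cargo. Klc2 was tightly grouped, with 984, 957 and 947 in untreated testis, 1104 and 1105 at 8 h, and 914 and 861 at 20 h. Both 8 h arrays were above and both 20 h arrays below the untreated range, as for 1 of the 84 probe sets (0.153% of all). The 20 h arrays came from different days. The mean was 887 ± 37.1 at 20 h and 1104 ± 1.27 at 8 h (SD, n = 2 each), a log2 difference of -0.31 ± 0.14 (SE), and -0.35 with the day as a block. Neither passed (limma, adjusted p = 0.99988 without the day). Klc1 was read by 4 probe sets. Their log2 fold changes were all negative at 8 h (-0.51 to -0.02) and differed in sign at 20 h (-0.33 to 0.85). The brightest had 182, 100.3 and 82.5 in untreated testis, 139 and 91.5 at 8 h, and 148 and 95.3 at 20 h. The dimmest had 18.5, 16.0 and 21.3 in untreated testis, 11.9 and 11.7 at 8 h, and 55.9 and 36.4 at 20 h. This dim probe set was below untreated at 8 h and above it at 20 h, as for 1 of the 84 (0.177% of all). It was kept through its 20 h arrays alone, where it was high, so the filter favoured this pattern. The dim probe set's log2 difference between 20 h and 8 h was 1.17 ± 0.43 (SE), against 0.07 ± 0.37 (SE) on the brightest. All 4 were positive there and differed in size. Klc3, the light chain known from outer dense fibres of rat sperm tails, had 805, 886 and 974 in untreated testis, 926 and 979 at 8 h, and 857 and 982 at 20 h. Klc4 had 206, 203 and 145 in untreated testis, 147 and 190.2 at 8 h, and 255 and 148 at 20 h. For Klc3 and Klc4 the groups overlapped.

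Cytoplasmic dynein-1 is built on the heavy chain Dync1h1, with intermediate and light intermediate chains that hold cargo. Dync1h1 had 1764, 1719 and 1487 in untreated testis, 1572 and 1539 at 8 h, and 1824 and 1500.0 at 20 h. Its groups overlapped, and the log2 fold changes were -0.09 ± 0.15 (SE) at 8 h and 0.0019 ± 0.15 (SE) at 20 h. The intermediate chain Dync1i2 had 1496, 1257 and 1460.4 in untreated testis, 1686 and 1665 at 8 h, and 1611 and 1671 at 20 h. All 4 cadmium arrays were above the 3 untreated ones, and untreated replicate 2 was the lowest. It averaged 1676 ± 14.9 at 8 h (SD, n = 2) and 1405 ± 129 in untreated testis (SD, n = 3). The log2 fold changes were 0.26 ± 0.13 (SE) and 0.23 ± 0.13 (SE), and with the day as a block 0.17 and 0.15. None passed (limma, adjusted p = 0.84 at 8 h and 0.999 at 20 h).

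The other intermediate chain, Dync1i1, had 159.7, 183 and 101 in untreated testis, 148 and 134 at 8 h, and 113 and 126 at 20 h. Light intermediate chain Dync1li1 had 1257, 1113 and 929 in untreated testis, 902 and 952 at 8 h, and 1302 and 1038 at 20 h, and Dync1li2 had 1129, 1151 and 1195 in untreated testis, 1253 and 1229.7 at 8 h, and 1159 and 1293 at 20 h. Dync1li1 was low on all day 3 arrays. Its log2 difference between 20 h and 8 h, 0.32 ± 0.19 (SE), was among the 4 largest positive ones and was 0.14 with the day as a block. Both 8 h arrays of Dync1li2 were above the untreated arrays.

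Dynein-2 is the retrograde motor of cilia and flagella. Its heavy chain, Dync2h1, had 2421, 2158 and 1802 in untreated testis, 2006 and 1968 at 8 h, and 2168 and 1913 at 20 h. Its light intermediate chain, Dync2li1, had 2138, 2272 and 3062 in untreated testis, 2676 and 2943 at 8 h, and 2370.1 and 3094 at 20 h. The first was low and the second high on the day 3 arrays. Dync2i1 and Dync2i2, its intermediate chains, had log2 fold changes of 0.05 ± 0.14 (SE) and 0.21 ± 0.16 (SE) at 8 h. None of the 4 genes passed.

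Dynein light chains join both motors and other proteins. Dynll2 had 9269, 9074 and 12985 in untreated testis, 13238 and 12828 at 8 h, and 9632.5 and 12873 at 20 h. The 4 day 3 arrays lay between 12828 and 13238 and the other 3 between 9074 and 9632.5, so that untreated replicate 3 was as high as the cadmium arrays of its day. Its log2 fold change of 0.34 ± 0.19 (SE) at 8 h, the fourth largest among the genes, was 0.02 with the day as a block. A dimmer Dynll2 probe set gave -0.24 at 8 h, the opposite sign. The Tctex-type chain Dynlt1, abundant in testis, had 4326, 4092 and 5042 in untreated testis, 5558 and 5289 at 8 h, and 4840.2 and 5192 at 20 h, with both 8 h arrays above the untreated ones. Dynlt3 had 89.6, 96.2 and 113 in untreated testis, 135 and 100.2 at 8 h, and 93.3 and 101 at 20 h. The roadblock chains had 386, 420.1 and 458 in untreated testis, 373 and 387 at 8 h, and 342 and 425 at 20 h for Dynlrb1 and 3752, 3570.1 and 4763 in untreated testis, 4688 and 4704 at 8 h, and 3966 and 4712 at 20 h for Dynlrb2. Dynlrb2 was high on all day 3 arrays, and the groups of Dynlrb1 and Dynlt3 overlapped. Over the 7 light chain genes the median log2 fold change at 8 h was 0.23, and 0.02 in the fit that blocks on the day. None passed.

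Several probe sets were kept for 16 genes, and their log2 fold changes had 1 sign in 12 of these genes at 8 h and in 11 at 20 h. Between 20 h and 8 h it was 7 of 16. Kif5b, Dynll2, Kif2c and Kif16b disagreed at 8 h.

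At an unadjusted p under 0.05 in limma, 0 of the 84 probe sets were higher at 8 h (1.16% of all) and 2 were lower, 1 each of Kif5a and Tubb4a (4.06% of all). At 20 h 0 were higher (0.767% of all) and 1 of Kif5a was lower (2.34% of all). Between 20 h and 8 h 1 of Klc1 was higher (1.22% of all) and 0 were lower (0.7% of all). An F test over the 3 groups passed 0 (0% of all) and had 0 at an unadjusted p under 0.05 (3.02% of all). With the hybridization day as a block 0 passed in any comparison. The unadjusted counts were then 1 at 8 h (Tubb6, 6.11% of all), 2 at 20 h (Kif5a and Tubb6, 5.74% of all) and 1 between the times (Klc2, 3.15% of all). In each of these counts the share among the 84 probe sets was at or below that among all. The Tubb6 and Klc1 probe sets counted here were those kept through cadmium arrays alone.

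Some groups did not overlap although no probe set passed. At 8 h 11 probe sets lay above all untreated arrays (13.1%, against 7.59% of all) and 7 below (8.33%, against 15.4% of all). At 20 h 4 lay above (4.65% of all) and 6 below (10.7% of all). All 4 cadmium arrays were above all untreated arrays for 2 probe sets, of Kif3a and Dync1i2 (1.82% of all), and below for 1, of Kif5a (4.9% of all). The 20 h arrays were above the 8 h arrays for 15 probe sets (15.2% of all) and below for 10 (13.2% of all).

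The largest mean increases at 8 h, after Tubb6, were those of Tubg1, Tubb4b and Dynll2, given above. The largest mean decreases were those of Kif14, Kif12, Kif5a and Kif13a. At 20 h the increases after Tubb6 were Dync1i2, Kif5b at 0.21 ± 0.21 (SE) and Tubb2b. The decreases after Kif5a were Kif3c at -0.39 ± 0.37 (SE), Tubgcp3 at -0.37 ± 0.35 (SE) and Kifc1. From 8 h to 20 h the largest positive log2 differences were 0.71 ± 0.49 (SE) for Kif14, 0.48 ± 0.45 (SE) for Kif12, 0.37 ± 0.57 (SE) for Tubb6 and the Dync1li1 value above. The largest negative ones were -0.45 ± 0.45 (SE) for Kif5a, -0.31 for Klc2, -0.29 ± 0.40 (SE) for Kif3c and -0.28 ± 0.20 (SE) for Kifc1. None of these passed. Both comparisons with untreated share its 3 arrays.

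**Figure D3:**
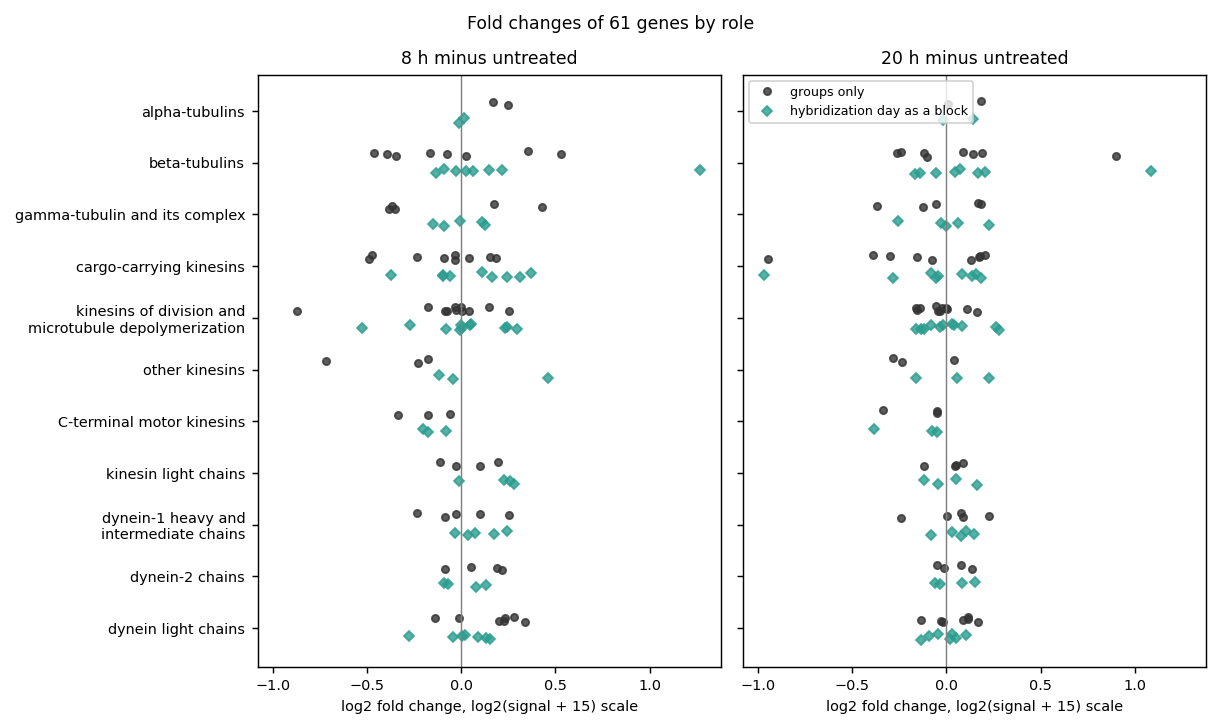
Log2 fold changes of the 61 genes are shown by role, with 8 h minus untreated on the left and 20 h minus untreated on the right. Dark circles come from the fit of the 3 groups and green diamonds from the fit with the hybridization day as a block. At 8 h both alpha-tubulins and 5 of the 7 dynein light chains lie right of 0 in the first fit and nearer to 0 in the second, while Dynlrb1 lies left of 0 in both. Tubb6 is the beta-tubulin on the far right and Kif5a the cargo kinesin on the far left at 20 h.

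Differences between hybridization days passed where those between groups did not. In a fit of day 3 against day 1 with the groups in the model, added after the data were seen, 9 of the 84 probe sets passed (limma, 10.7%, against 9.52% of all 20857). Higher on day 3 were Tubg1 by 0.69 ± 0.10 (SE, adjusted p = 0.0060), Tubb4b by 0.39 ± 0.06, Dynll2 by 0.45 ± 0.06, Tuba8 by 0.44 ± 0.08, Dync2li1 by 0.45 ± 0.09 and Dynlrb2 by 0.30 ± 0.08 on the log2 scale. Lower were the dimmer Kif5b probe set at -1.21 ± 0.25 (SE, limma, adjusted p = 0.019), Kif21a at -0.91 ± 0.19 and the brighter Tubb5 probe set at -0.77 ± 0.16. The share called was close to that of all probe sets. The call rests on few arrays: without untreated replicate 1 or untreated replicate 3 it was 0 of 84, without either 20 h array 4 of 84, and without the intensity trend in limma 0 of 84. Under quantile normalization 4 passed, of which 3 (Tubg1, Kif5b and Tubb5) were among the 9 and the other was Dync2h1. Tubb4b then stood at -0.07.

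All 4 arrays of day 3 were above the 3 others for 16 of the 84 probe sets (19%, against 10.6% of all) and below them for 26 (31%, against 18.7% of all). The direction went with brightness. Of the 42 brighter probe sets, with a mean above a signal of 297, 27 were higher on day 3 (64.3%, against 59.4% of all as bright). Of the 42 dimmer ones 4 were higher (9.52%, against 28.6% of all as dim). Quantile normalization, which gives all arrays 1 distribution, left 21 of 42 and 12 of 42 higher (55% and 49.7% of all). Scaling to one 75th percentile left 33 and 8 (77.1% and 42.3% of all).

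**Figure D4:**
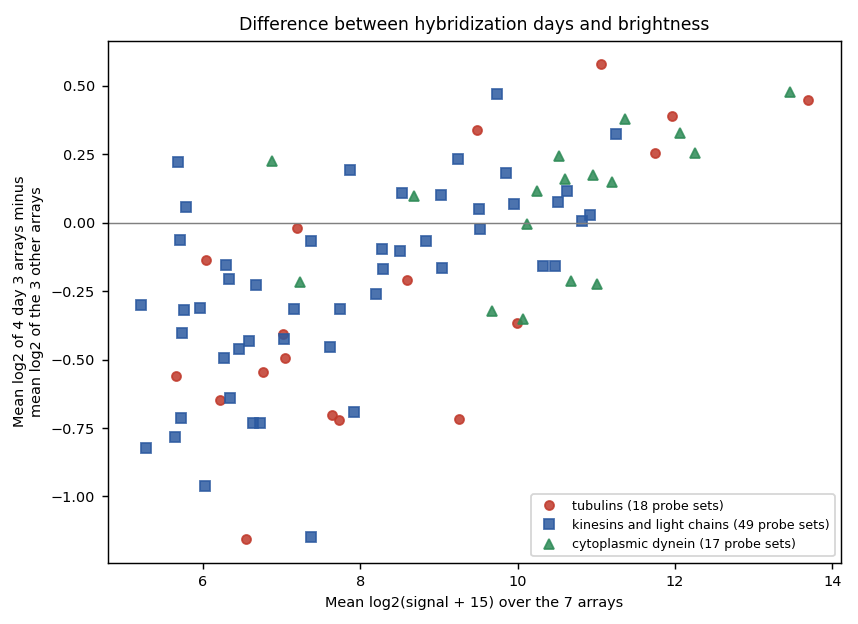
Each point is 1 of the 84 probe sets, with its mean log2(signal + 15) over the 7 arrays on the horizontal axis. The vertical axis is the mean log2 of the 4 day 3 arrays minus that of the 3 other arrays. Circles are tubulins, squares kinesins with light chains and triangles cytoplasmic dynein. Over all 84 most dim probe sets lie below 0 and most bright ones above it.

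Markers of spermatids, the cells that build the manchette and tail, moved with the same days. Their 14 measured genes of 16 summed to a signal of 175878 to 182494 on the day 3 arrays and 124581 to 133120 on the other 3. By group the sums were 175878 and 182230 at 8 h, 130440 and 182494 at 20 h, and 124581 to 182142 in untreated testis. Their median day 3 minus day 1 difference was 0.47 on the log2 scale (12 of 14 higher), beside -0.07 for the 61 genes of tubulins and motors. These medians are not matched for brightness. No spermatid marker gave less than 1674.6 on any array, while 42 of the 84 tubulin and motor probe sets had a mean of 297 or less. Spermatocyte markers (6 of 10) summed to 32112 and 32113 at 8 h, 28744 and 32211 at 20 h, and 24687 to 28156 in untreated testis. All 4 cadmium sums were thus above the untreated ones, but this did not hold for each gene. Ldhc, the brightest, had 10915, 10268 and 14214 in untreated testis, 15733 and 15216 at 8 h, and 11136 and 15744 at 20 h. Its cadmium and untreated arrays overlapped, as did those of Hspa2 and Sycp3, the next brightest. For Smc1b all 4 cadmium arrays were above the untreated ones. No spermatocyte marker passed. The median day 3 minus day 1 difference was -0.22 for spermatocyte markers and -0.17 for spermatogonial markers. Whether the spermatid markers, the brightness and the day differences have 1 source was not tested.

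The remaining marker lists varied as follows. Spermatogonial markers (6 of 9) summed to 1716 and 1756 at 8 h, 1630.3 and 1689 at 20 h, and 1442 to 2266 in untreated testis. Sertoli cell markers (11 of 15) had 15448 and 17294 at 8 h, 14653 and 17366 at 20 h, and 14257 to 16533 in untreated testis. Leydig cell markers (7 of 8) had 7243 and 11126 at 8 h, 2567 and 7419 at 20 h, and 6117 to 8289 in untreated testis. Peritubular myoid markers (8 of 8) had 2690.3 and 2704 at 8 h, 2632 and 3014 at 20 h, and 2828 to 2852 in untreated testis. These 4 lists overlapped between cadmium and untreated arrays in at least 1 of the times. Macrophage markers (8 of 8) had 2098 and 2232 at 8 h, 2084 and 2095 at 20 h, and 1843 to 2094 in untreated testis. For blood (2 of 7) the sums were 1813 and 2401 at 8 h, 2305 and 3418 at 20 h, and 1510 to 2485 in untreated testis. Endothelial markers, given above, were 9 of 11. Germ cell and Sertoli cell markers were present on every array of this testis series.

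Partners of the motors were read from 4 lists, and no member passed at either time (limma). For dynactin and dynein adaptors, which link dynein to cargo, 16 of 20 genes were measured, with a median of 0.07 at 8 h and 0.09 at 20 h (12 and 11 genes higher). The largest differences were those of Dctn4, a dynactin subunit, at -0.48 ± 0.31 (SE) at 8 h and Actr1b, of the dynactin filament, at 0.20 ± 0.25 (SE) at 20 h. Dctn4 had 440, 577 and 262 in untreated testis and 271 and 302 at 8 h, both above the untreated array of their day. With the day as a block the Dctn4 value at 8 h was 0.11, of opposite sign, and the Actr1b value at 20 h was 0.12. For tubulin folding and modification 24 of 27 were measured, with medians of 0.20 and 0.11 (17 and 17 higher). Tbcc, a tubulin cofactor, had signals of 144, 147 and 144 in untreated testis, 225 and 216 at 8 h, and 145 and 219.5 at 20 h. Its log2 fold change was 0.56 ± 0.21 (SE) at 8 h, and both 8 h arrays and 20 h replicate 2 stood above the others. Vash1, which removes the terminal tyrosine of alpha-tubulin, was at -0.80 ± 0.32 (SE) at 20 h.

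For microtubule binding and severing proteins 23 of 27 were measured, with medians of -0.12 at 8 h and -0.05 at 20 h (10 and 9 higher). The largest values were 0.49 ± 0.58 (SE) at 8 h for Stmn2, a tubulin-binding stathmin with low signals, and 0.69 ± 0.32 (SE) at 20 h for Mapre2, a plus-end binding protein. For kinesin adaptors and intraflagellar transport all 20 were measured, with medians of 0.05 and 0.04 (12 and 13 higher). Ift81, a transport particle protein that binds tubulin, had 0.40 ± 0.15 (SE) at 8 h, and Trak1, a mitochondrial kinesin adaptor, had -0.45 ± 0.21 (SE) at 20 h. In the fit that blocks on the day the 4 medians lay at 0.04, -0.0078, -0.02 and -0.09 at 8 h, in the order given here.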

How the data were processed

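Total RNA from whole testis was hybridized to Rat230_2 arrays, and each deposited value is 1 probe set's signal intensity, not logged, made with MAS 5.0 per the labels' series design, which also names GeneSpring 7.2. The instrument's experiment files hold other information, settings and no measurements, per the file headers, and gave the hybridization days. The genome build behind the probe sets is not given in the sources used here.

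Values were taken as log2(signal + 15) with no further normalization, and the 15 is the 20th percentile over the whole table. Of 31099 probe sets 57 controls were left out and 20857 were kept. Limma 3.58.1 under R 4.3.3 fitted the 3 groups together and an intensity trend, with 4 residual and 5.48 prior degrees of freedom. Benjamini-Hochberg adjustment ran over all probe sets kept. The fit was tested on simulated data with independent noise and no hybridization-day effect, which cannot show how it behaves under day differences. Alternatives were other pseudocounts (1 and 50), filters, quantile and 75th percentile scaling, the hybridization day or replicate number as a block, the mean of a gene's probe sets, and leaving out each array. The fit of the 4 day 3 arrays alone and the test of the day itself were added after the data were seen. P-values are over arrays, which the labels call biological replicates. Promoters came from RefSeq (GRCr8), and Python 3.11.15 and matplotlib 3.10.9 were used.

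The members, gene lists and alternatives were chosen with earlier results of these data known. The naming rule gave, per comparison, the 4 genes with the largest mean increase and the 4 with the largest mean decrease, the largest change in each partner list, and the values of a set of tubulin, kinesin and dynein genes whatever they were. Second probe sets of Kif3b, Kif5a, Kif11, Kif13a, Klc1 and Tubb4a were singled out after their values were seen. So were Tubgcp4, Tubgcp6, Kif7, Kif12, Kif21a and the members with a day difference. Replicate numbers did not pair arrays: the correlation of the differences between replicates 1 and 2 over 11552 genes was -0.02 between untreated and 8 h, 0.08 between untreated and 20 h, and 0.17 between 8 h and 20 h.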

Additional observations from a re-analysis of the deposited data

Results flagged for a closer look

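For 2 of the 84 probe sets both arrays of one time lay above the untreated range and both arrays of the other time below it. Klc2, a kinesin light chain, was above at 8 h and below at 20 h, and its log2 difference of 20 h minus 8 h was -0.31. Over all 20857 probe sets 32 (0.153%) did so. The dimmest Klc1 probe set, of a light chain read by 3 other probe sets that did not do so, was above at 20 h and below at 8 h, with a log2 difference of 1.17. Over all probe sets 37 (0.177%) did so. The test of the difference between the times passed for neither (limma, adjusted p = 0.99988 for both). The Klc1 signals lay between 11.7 and 55.9, close to the 15 added before the log. This Klc1 probe set was kept through its 20 h arrays alone, where it was high. No group holds 4 arrays, so single arrays were not checked for standing apart within a group.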

How the results depend on the processing

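Under 18 alternative settings, 7 of which each left out 1 array, 0 tubulin, kinesin or dynein probe sets passed in any comparison between groups. Over all probe sets the count ran from 0 to 1 at 8 h (1 without 8 h replicate 2), from 0 to 8 at 20 h (8 without 20 h replicate 2), from 0 to 1 between the times and from 0 to 1 in the F test when an array was left out. On day 3 arrays alone it was 8 at 8 h, 2 at 20 h and 2 in the F test. Of the 35 fold changes of named probe sets that were checked, 0 passed under any setting and 6 changed sign. Tubb4b at 8 h was -0.0022 under quantile normalization. Tubb6 between the times was -0.18 in the fit that blocks on the day, and -0.19 to 0.94 when an array was left out. Tubb2b at 20 h was -0.41 on day 3 arrays alone, and -0.23 to 0.61 when an array was left out. Leaving out an array gave -0.85 to 0.11 for Tubgcp3 at 20 h, -0.88 to 0.064 for the second Kif5a probe set at 20 h and -1.24 to 0.33 for the brightest Kif5a probe set between the times, with the high end in each case without 20 h replicate 2. The last was 0.13 as the mean of Kif5a's probe sets. The cause of these changes was not tested.

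The genes' median fold change stayed within 0.08 of 0 on the log2 scale and moved past its spread between untreated arrays (SD 0.02) under some settings. At 8 h it was -0.0021 with the filter at the 60th percentile, 0.024 under quantile normalization, 0.073 with 75th percentile scaling, 0.022 in the day-block fit, 0.0081 on day 3 alone and -0.068 with the mean of a gene's probe sets. Leaving out an array gave -0.056 to 0.028. At 20 h it was 0.050 with 75th percentile scaling, 0.021 in the day-block fit and 0.012 on day 3 alone, and leaving out an array gave -0.074 to 0.021. Between the times it was -0.020 with the stricter filter, -0.042 with 75th percentile scaling and -0.026 on day 3 alone, and leaving out an array gave -0.033 to 0.016. With the replicate number as a block, which rests on no known pairing, it was -0.056 at 8 h and -0.046 at 20 h, and no call changed. Over all probe sets the median was -0.08 at 8 h and -0.05 at 20 h, 0.0081 and -0.0022 under quantile normalization, and 0.02 and 0.0013 with 75th percentile scaling.

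The day 3 against day 1 counts, 9 of the 84 and 1985 of all, depended on the setting. They were 4 and 932 under quantile normalization, where Tubb4b was -0.066, 0 and 0 without the intensity trend, 14 of the 84 with 75th percentile scaling, and 966 of all without a filter. Leaving out an array gave 0 to 9 of the 84 and 276 to 2020 of all. Each group has 2 or 3 arrays, signals under about 15 are near the constant added before the log, and values at 8 h share their day with 1 untreated array.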
